A study of Mus musculus with 6 samples.

Results

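The genes described here make, sulfate and carry heparan sulfate and chondroitin sulfate, and were measured in E14TG2a cells, a mouse embryonic stem (ES) cell line. They were chosen by symbol, as the glypicans, the syndecans, the enzymes that start, extend, epimerise and sulfate the chains, and the extracellular sulfatases, and gave 50 of the 18193 genes with a probe set of their own on the Affymetrix mouse array. The symbols Xylt1, Ndst1 and Hs3st5, which the same choice would include, had no probe set with that single symbol. The 50 genes were covered by 95 probe sets, and a gene's value is that of its brightest probe set (by its mean on the 6 arrays) unless another is named. Differentiating cells (n = 3) had been kept for 3 days in medium without leukaemia inhibitory factor (LIF) and sorted by flow cytometry as positive for surface 5T4. Undifferentiated cells (n = 3) had been kept with 1000 units/ml LIF and were the 5T4-negative fraction of the sort. Both came from the same line, which is deficient in Hprt, and no transgene is named in the labels. Withdrawal of LIF and the 5T4 sort changed together and cannot be told apart. Neither the labels nor the methods state that the replicates were separate cultures, so p-values measure only the spread between these samples, which may be technical.

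Proteoglycans are core proteins with long sugar chains attached. Glypicans are held to the outer membrane by a lipid anchor and syndecans span the membrane. A xylosyltransferase starts the chain on a serine, polymerases build it from alternating sugars, and sulfotransferases then decorate it in patterns that set which growth factors, morphogens and chemokines can bind. In ES cells, heparan sulfate is known as a cofactor of fibroblast growth factor signalling, which takes part in the exit from the pluripotent state.

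The values are deposited RMA values on a log2 scale, on which 1 unit is a 2-fold difference, and they carry no detection call, which leaves low values indistinguishable from background. Differences were tested with limma over all 45037 probe sets other than array controls, and a gene passed at an adjusted p under 0.1 (Benjamini-Hochberg). Of 10 ES cell markers, all 10 had lower means in differentiating cells. The groups did not overlap for 9 (90%, beside 12.8% of all genes), and 3 passed (30%, beside 1.45% of all genes). Tpbg, the gene of 5T4, was 6.71, 7.52 and 7.97 in differentiating replicates 1 to 3 and 5.94, 6.76 and 5.68 in undifferentiated replicates 1 to 3, and undifferentiated replicate 2 thus reached the level of differentiating replicate 1 (log2 fold change 1.27, adjusted p = 0.22). Over all probe sets this array correlated with the differentiating arrays at 0.984 to 0.986, with undifferentiated replicate 3 at 0.991 and with undifferentiated replicate 1 at 0.974, while undifferentiated replicate 1 correlated with the differentiating arrays at 0.961 to 0.969. Leaving out undifferentiated replicate 1 turned the sign of the log2 fold change for 8 of the 50 genes, and leaving out undifferentiated replicate 2 for 9, none of which passed. The sign turned for 5 without undifferentiated replicate 3, and for 7, 4 and 2 without differentiating replicates 1, 2 and 3. Of 10 fibroblast markers, 10 markers of primitive and visceral endoderm and 10 of blood and endothelium, none passed in limma. In each list 2, or 20%, had an unadjusted limma p under 0.05, beside 17.2% of all genes. The groups did not overlap for 3 fibroblast markers and 1 endoderm marker that were higher (30% and 10%, beside 10.7% of all genes). They also did not overlap for 1 blood and endothelial marker that was lower (10%, beside 12.8%). The summed linear level of the fibroblast markers was 595 to 1276 in differentiating and 451 to 873 in undifferentiated samples, with the highest undifferentiated value in replicate 2. That of the endoderm markers was 631 to 994 and 419 to 547, led by Dab2 (log2 fold change 1.96) and Cubn (1.89). The other endoderm markers, among them Gata4, Gata6 and Sox17, had log2 fold changes from -0.034 (Sox7) to 0.21 (Amn). Of the 10, 6 had a mean below the median of all probe sets. For blood and endothelium the summed level was 281 to 598 and 522 to 805. Its largest part in undifferentiated samples was Pecam1 (8.67, 7.56 and 8.54 in undifferentiated replicates 1 to 3, log2 fold change -1.93). In undifferentiated samples the mean of Pecam1 was 8.26, and the means of the other blood and endothelial markers ran from 3.49 (Ptprc) to 6.89 (Tek). These others had log2 fold changes from -0.92 (Tek) to 0.14 (Cdh5), and 7 of the 10 had a mean below the median of all probe sets. A sum led by 1 gene does not by itself show such cells. RMA gives no marker a value of 0. The part of such cells in the results that follow was not tested, and in sorted bulk samples fewer cells of a type and less RNA per cell cannot be told apart.

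Of the 50 genes, 2 sulfotransferase genes were higher in differentiating cells, Chst15 and Chst1, none was lower, and 48 did not pass. Both also exceeded 1 in log2 fold change, and 0.511% of all genes were higher by both criteria. The 2 are 4% of the genes, beside 0.797% of all genes that were higher and 1.45% that were lower by the same test. At an unadjusted p under 0.05 there were 8 higher and 2 lower, or 20% of the 50, beside 17.2% of all genes. The groups did not overlap for 10 genes that were higher and 3 that were lower (20% and 6%, beside 10.7% and 12.8% of all genes). The median log2 fold change of the 50 was 0.05, against 0.02 for all genes, with a range from -0.76 to 2.40. Hs3st3b1, also a sulfotransferase gene, was lower at 1 of its dimmer probe sets.

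The upstream sequences of these sulfotransferase genes are shown because they are the genes with a probe set that passed. Each is the 250 bases before a RefSeq transcription start (assembly GRCm38.p6), written 5′ to 3′ on the gene's strand, and capitals mark matches, on either strand, to GGGCGG, the GC box of Sp and Krüppel-like factors, or to CACCC, another Krüppel-like element. For Chst15, which has a second annotated start, the window of the first is given (chr7:132317229-132317478, minus strand). The others are those of Chst1 (chr2:92600867-92601116, plus strand) and Hs3st3b1 (chr11:63922285-63922534, minus strand).
Chst15: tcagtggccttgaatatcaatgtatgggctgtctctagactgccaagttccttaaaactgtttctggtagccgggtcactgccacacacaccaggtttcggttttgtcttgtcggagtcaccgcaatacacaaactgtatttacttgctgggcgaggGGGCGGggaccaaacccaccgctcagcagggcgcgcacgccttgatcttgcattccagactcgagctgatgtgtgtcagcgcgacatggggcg
Chst1: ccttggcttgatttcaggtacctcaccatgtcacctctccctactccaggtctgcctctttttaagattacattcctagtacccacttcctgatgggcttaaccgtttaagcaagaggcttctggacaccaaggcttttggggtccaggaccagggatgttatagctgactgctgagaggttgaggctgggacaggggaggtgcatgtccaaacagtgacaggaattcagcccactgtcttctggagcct
Hs3st3b1: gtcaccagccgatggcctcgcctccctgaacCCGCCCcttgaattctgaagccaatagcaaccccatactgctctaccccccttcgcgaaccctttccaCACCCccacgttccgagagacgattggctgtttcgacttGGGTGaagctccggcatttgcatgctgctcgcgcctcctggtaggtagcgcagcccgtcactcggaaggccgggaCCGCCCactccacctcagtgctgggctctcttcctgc
The Chst15 window held 1 GGGCGG match and 14 CG dinucleotides, and that of its second start, which overlaps it and is not shown, held 1 GGGCGG match, 2 CACCC matches and 20 CG dinucleotides. No CACCC occurred in the first, and the Hs3st3b1 window held 2 GGGCGG matches, 2 CACCC matches and 17 CG dinucleotides. In the Chst1 window neither motif occurred, with 1 CG dinucleotide, against a median of 6 in all 32851 windows of this length. Of those windows, 32.7% held GGGCGG and 52% held CACCC. The STAT element TTCNNNGAA, in 7.02% of all windows, and TATAAA, in 12.4%, occurred in none of these windows. A match or its absence describes the letters of the window and not the binding of a factor.

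Chst15 adds a sulfate to the 6 position of N-acetylgalactosamine that already carries one at the 4 position, which gives the disulfated chondroitin sulfate E unit. Its RMA values were 8.97, 9.90 and 10.04 in differentiating replicates 1 to 3 and 6.62, 8.08 and 7.0 in undifferentiated replicates 1 to 3. Every differentiating array lay above every undifferentiated array, and undifferentiated replicate 2 was the highest of its group. The means were 9.64 ± 0.58 (SD, n = 3) and 7.23 ± 0.76 (SD, n = 3), which is 5.29 times as high in differentiating cells (log2 fold change 2.40, 95% interval 1.38 to 3.43, SE 0.43, limma adjusted p = 0.0873). A second probe set gave 7.13, 7.68 and 8.17 in differentiating replicates 1 to 3 and 5.18, 6.17 and 5.82 in undifferentiated replicates 1 to 3. It separated the groups in the same direction and also passed, at 3.84 times the undifferentiated level (log2 fold change 1.94, SE 0.33, limma adjusted p = 0.0806). Without undifferentiated replicate 2 the log2 fold change of the brightest probe set was 2.83 (limma adjusted p = 0.0324), and without undifferentiated replicate 1 it was 2.10 (adjusted p = 0.106), which did not pass. The call was also lost without differentiating replicate 2 (2.27, adjusted p = 0.362), differentiating replicate 3 (2.20, adjusted p = 0.308) or undifferentiated replicate 3 (2.29, adjusted p = 0.327).

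Chst1, a sulfotransferase that acts on galactose and is known for keratan sulfate rather than heparan or chondroitin sulfate, has 1 probe set. Its values were 7.88, 7.64 and 7.17 in differentiating replicates 1 to 3 and 6.07, 6.48 and 5.73 in undifferentiated replicates 1 to 3. Again the groups did not overlap, and undifferentiated replicate 2 lay nearest to the differentiating arrays. Differentiating cells had a mean of 7.56 ± 0.36 (SD, n = 3) against 6.09 ± 0.38 (SD, n = 3), a ratio of 2.77 (log2 fold change 1.47, 95% interval 0.88 to 2.06, SE 0.25, limma adjusted p = 0.0788). The call held without undifferentiated replicate 2 (1.67, adjusted p = 0.0447). It was lost without any other single array, with log2 fold changes from 1.29 to 1.67 and adjusted p from 0.104 (undifferentiated replicate 1) to 0.344 (differentiating replicate 2). At most 3 of all 18193 genes passed in limma when differentiating replicate 2 or 3 or undifferentiated replicate 3 was omitted.

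Hs3st3b1 adds the rare 3-O sulfate to heparan sulfate. At its brightest probe set the values were 5.71, 5.56 and 5.48 in differentiating replicates 1 to 3 and 5.59, 5.46 and 5.66 in undifferentiated replicates 1 to 3, with overlapping groups (log2 fold change 0.013, 95% interval -0.27 to 0.29, adjusted p = 0.977). A dimmer one of its 4 probe sets gave 3.86, 3.82 and 3.77 in differentiating replicates 1 to 3 and 5.38, 4.83 and 5.17 in undifferentiated replicates 1 to 3. Here the 3 differentiating values lay close together and below every undifferentiated value. This probe set passed at -1.31 on the log2 scale, 2.48 times lower in differentiating cells (SE 0.16, limma adjusted p = 0.0441). Of all probe sets, 1.03% were lower by the same test and 10.3% had differentiating values wholly below the undifferentiated ones. Its differentiating values are low, so the fold can understate the change. The remaining probe sets gave 0.17 and -0.010 and did not pass, so the probe sets of this gene disagree, and which of them follows its transcript cannot be told from these files. The call at the passing probe set held without differentiating replicate 1 (adjusted p = 0.0575), undifferentiated replicate 1 (-1.18, adjusted p = 0.0474) or 2 (-1.46, adjusted p = 0.0244). It was lost without undifferentiated replicate 3 (-1.29, adjusted p = 0.206), differentiating replicate 2 (-1.31, adjusted p = 0.27) or differentiating replicate 3 (-1.29, adjusted p = 0.22), with log2 fold changes about as large as with all arrays.

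**Figure D1:**
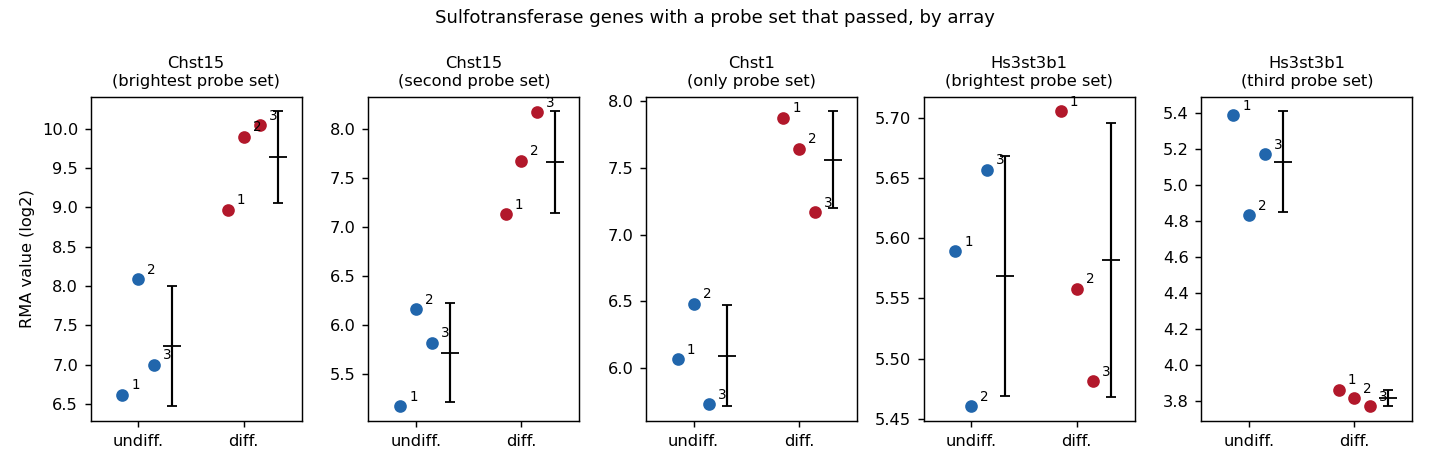
Points are the log2 RMA values (vertical axis, scaled panel by panel) of Chst15, Chst1 and Hs3st3b1 on each array, undifferentiated in blue and differentiating in red, numbered by replicate, with the mean and SD of 3 arrays in black. Both Chst15 probe sets and Chst1 are higher in differentiating cells without overlap, while Hs3st3b1 is lower at a dimmer probe set (-1.31) and not at its brightest (0.013).

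The other chondroitin and dermatan sulfotransferase genes did not pass. Of the 8 in this group, Chst15 included, 7 had a positive log2 fold change, beside 53.6% of all genes. The group's median was 0.33, against 0.02 for all genes. Chst11, which sulfates the 4 position of chondroitin, was 6.57, 6.77 and 6.69 in differentiating replicates 1 to 3 and 5.86, 6.78 and 5.69 in undifferentiated replicates 1 to 3. Undifferentiated replicate 2 was level with the highest differentiating array and the other undifferentiated arrays lay below all of them (log2 fold change 0.57, adjusted p = 0.446). At a dimmer Chst11 probe set all undifferentiated arrays lay below all differentiating arrays (0.37, limma adjusted p = 0.24), as for 10% of all probe sets. Chst14, the 4-O sulfotransferase of dermatan sulfate, separated the groups (0.40, 95% interval 0.02 to 0.78, adjusted p = 0.342). Ust, the uronyl 2-O sulfotransferase, had 0.53 (95% interval -0.05 to 1.11). The 6-O sulfotransferases Chst3 and Chst7 had 0.25 and 0.26, and the 4-O sulfotransferases Chst12 and Chst13 had -0.039 and 0.050.

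Chsy1 and Chsy3 encode synthases that build the chondroitin chain. Chsy1 was 8.99, 9.03 and 9.14 in differentiating replicates 1 to 3 and 9.50, 9.70 and 9.52 in undifferentiated replicates 1 to 3. All differentiating values were below all undifferentiated values, by a small and even step (log2 fold change -0.52, 95% interval -0.79 to -0.24, SE 0.12, limma adjusted p = 0.122). It did not pass among all probe sets and did pass when 1 mean per gene was tested (limma adjusted p = 0.0806). What changed the call was not tested. Chsy3 had -0.18 (adjusted p = 0.638) at values of 2.87 to 3.37, near the low end of the arrays, and its other probe set had 0.081. The partner genes of these synthases, Chpf and Chpf2, separated the groups upwards without passing (0.15, adjusted p = 0.611, and 0.46, adjusted p = 0.353, or 0.25 without undifferentiated replicate 1). Dse, the epimerase that turns chondroitin into dermatan sulfate, was 7.75, 8.02 and 8.58 in differentiating replicates 1 to 3 and 7.85, 8.61 and 8.0 in undifferentiated replicates 1 to 3, with full overlap (log2 fold change -0.036, 95% interval -0.68 to 0.61).

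Of the 7 carbohydrate sulfotransferases known for other glycans, Chst1 alone passed at the brightest probe set, and the other 6 had log2 fold changes from -0.21 (Chst5) to 0.047 (Chst4). They include Chst10, which makes the HNK-1 sugar epitope (-0.20, 95% interval -0.64 to 0.24), and Chst8 and Chst9, which sulfate N-acetylgalactosamine on N-linked sugars (-0.12 and -0.039). Of these 6, 5 had a mean below the median of all probe sets.

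**Figure D2:**
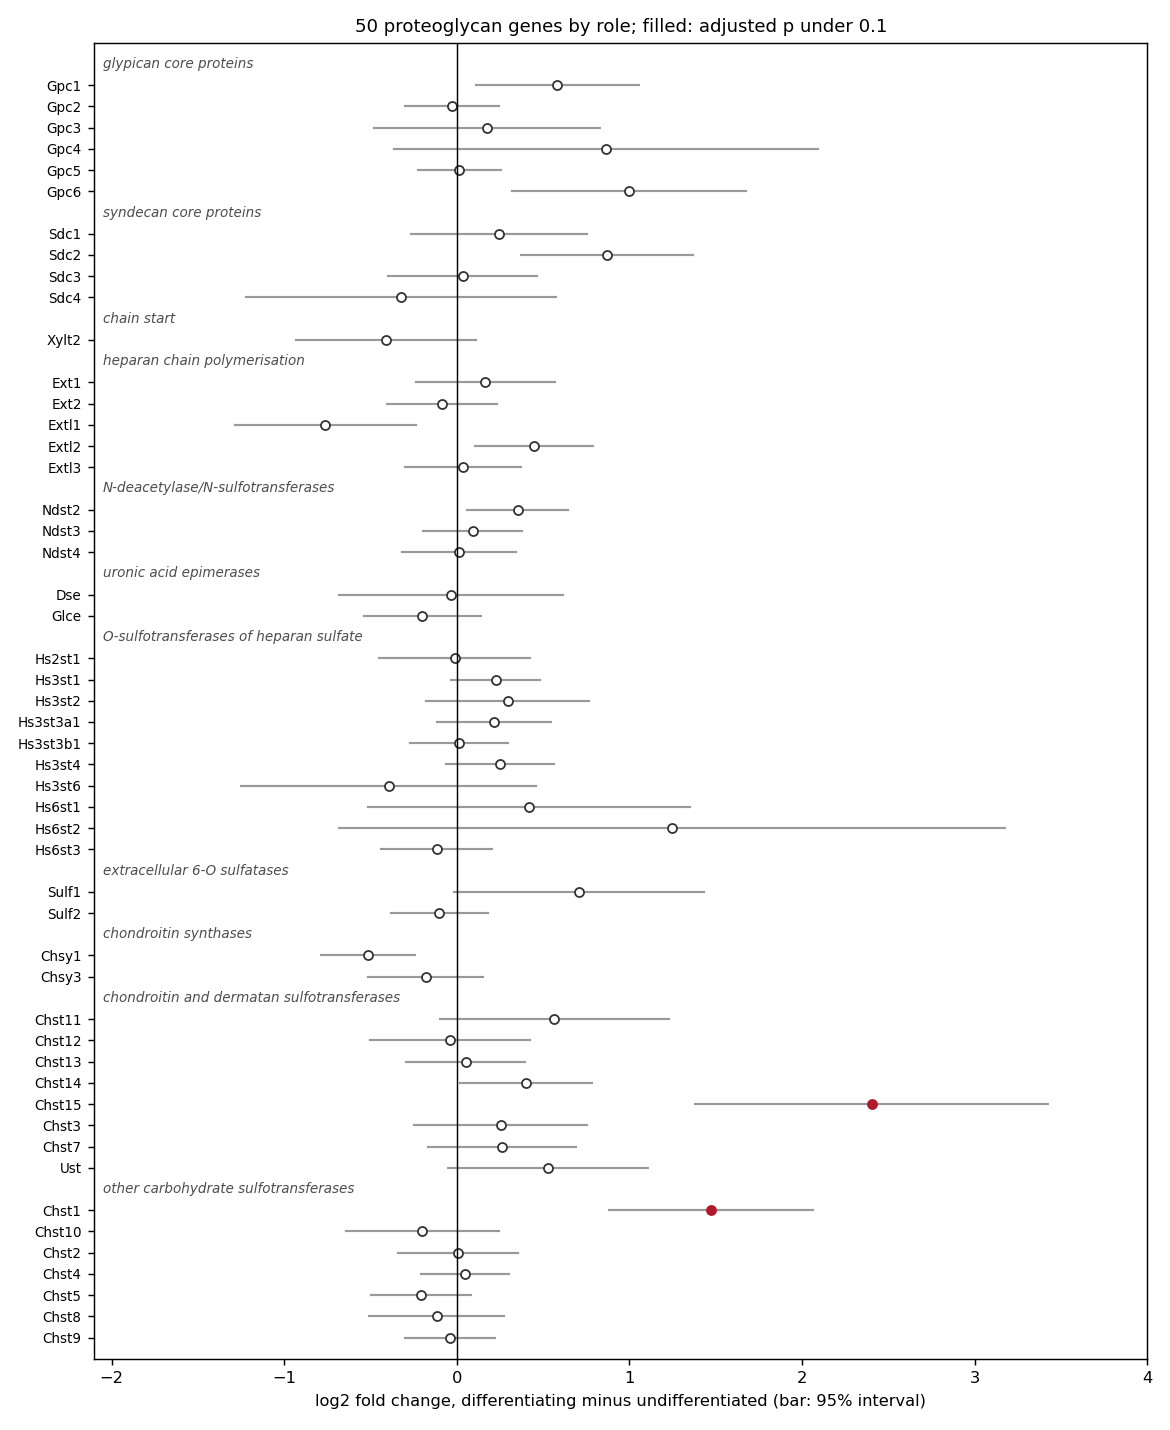
The horizontal axis is the log2 difference, differentiating less undifferentiated, for the 50 genes at their brightest probe sets, grouped by role, with the 95% interval of the limma fit as a bar. Filled points passed, which are Chst15 (2.40) and Chst1 (1.47); the widest interval is that of Hs6st2 (-0.69 to 3.18).

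None of the 6 glypican genes passed in limma. A positive log2 fold change was found for 5 of them, beside 53.6% of all genes, and an unadjusted p under 0.05 for 2, beside 17.2% of all genes. Gpc6 was 7.21, 7.13 and 7.48 in differentiating replicates 1 to 3 and 6.23, 6.88 and 5.72 in undifferentiated replicates 1 to 3. The differentiating arrays lay above all undifferentiated arrays, and the undifferentiated arrays spread over more than 1 unit, with replicate 2 highest (log2 fold change 1.00, 95% interval 0.32 to 1.68, adjusted p = 0.2). All 5 Gpc6 probe sets had positive log2 fold changes (0.38 to 1.22). Gpc4 was 10.31, 9.31 and 9.84 in differentiating replicates 1 to 3 and 8.15, 10.13 and 8.58 in undifferentiated replicates 1 to 3. Undifferentiated replicate 2 lay within the differentiating range and the other undifferentiated arrays lay below it (log2 fold change 0.86, 95% interval -0.36 to 2.09, adjusted p = 0.535, and 0.46 without undifferentiated replicate 1). Gpc1 had 0.58 (95% interval 0.11 to 1.05, adjusted p = 0.268), with differentiating replicate 1 level with undifferentiated replicate 2. Gpc3, known for its role in limiting growth, had 0.17 (95% interval -0.48 to 0.83), which was 0.50 without undifferentiated replicate 1 and -0.034 without undifferentiated replicate 2. Gpc2 and Gpc5 had -0.027 and 0.015 at low values of 3.52 to 3.77.

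Sdc2 had the largest log2 fold change of the 4 syndecan genes and did not pass. Its values were 7.62, 7.42 and 7.55 in differentiating replicates 1 to 3 and 6.80, 6.97 and 6.19 in undifferentiated replicates 1 to 3, without overlap of the groups (log2 fold change 0.87, 95% interval 0.37 to 1.37, SE 0.21, limma adjusted p = 0.145). Among 3 further probe sets, 2 also separated the groups in this direction (0.68 and 1.04), and the dimmest had -0.01. Sdc4, the syndecan of focal adhesions, was 10.36, 9.36 and 9.93 in differentiating replicates 1 to 3 and 10.95, 10.03 and 9.65 in undifferentiated replicates 1 to 3. The ranges overlapped and undifferentiated replicate 1 was the highest of all arrays (log2 fold change -0.32, 95% interval -1.22 to 0.58, and 0.046 without that array). Sdc1 and Sdc3 had 0.24 (95% interval -0.27 to 0.75) and 0.033 (95% interval -0.40 to 0.46).

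The genes for building heparan sulfate chains gave no passing member. Xylt2, which attaches the first xylose, was 6.43, 6.51 and 6.26 in differentiating replicates 1 to 3 and 7.30, 6.52 and 6.61 in undifferentiated replicates 1 to 3. The groups nearly met without overlapping, and undifferentiated replicate 1 set most of the difference (log2 fold change -0.41, adjusted p = 0.483; without that array -0.17). Ext1 and Ext2, the partners of the heparan sulfate polymerase, had 0.16 (95% interval -0.24 to 0.57) and -0.087 (-0.40 to 0.23). Among the exostosin-like genes, Extl1 was 5.73, 5.72 and 5.52 in differentiating replicates 1 to 3 and 6.91, 6.07 and 6.27 in undifferentiated replicates 1 to 3. It separated the groups downwards (log2 fold change -0.76, 95% interval -1.29 to -0.24, adjusted p = 0.204). Extl2, a transferase that acts on the linker of the chain, separated them upwards (0.44, 95% interval 0.10 to 0.79, adjusted p = 0.245), and Extl3 had 0.036.

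In the modification of heparan sulfate, N-deacetylation and N-sulfation come first. Ndst2, one of the enzymes for both steps, separated the groups with 6.98, 7.08 and 7.11 in differentiating replicates 1 to 3 and 6.55, 6.85 and 6.70 in undifferentiated replicates 1 to 3 (log2 fold change 0.35, adjusted p = 0.276). Ndst3 and Ndst4 had 0.091 and 0.010, both with a mean below the median of all probe sets. Glce, the epimerase that makes iduronic acid, had -0.20 (95% interval -0.54 to 0.14, and -0.083 without undifferentiated replicate 1), with negative values at all 3 of its probe sets, and the 2-O sulfotransferase Hs2st1 had -0.013 (95% interval -0.45 to 0.42). The dimmer Hs2st1 probe sets gave 0.28, -0.12 and 0.25 and did not pass. The last of them separated the groups upwards, as did 10% of all probe sets. Of the 6 measured 3-O sulfotransferase genes, Hs3st1 and Hs3st4 separated the groups upwards by small steps (0.23, adjusted p = 0.432, and 0.25, adjusted p = 0.48), as did 10.7% of all genes. Both had a mean below the median of all probe sets. Hs3st2 and Hs3st3a1 had 0.30 and 0.21. Hs3st6 had -0.40 with all arrays and 0.046 without undifferentiated replicate 1, its highest array. The brightest Hs3st2 probe set is of the kind whose probes may match other transcripts, and its other probe sets gave 0.14 and -0.07.

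The widest spread within a group was found in 6-O sulfation. Hs6st2, a 6-O sulfotransferase, was 7.35, 7.12 and 7.98 in differentiating replicates 1 to 3 and 4.30, 7.84 and 6.58 in undifferentiated replicates 1 to 3. The differentiating values kept within 1 unit, whereas undifferentiated replicate 1 lay more than 3 units below undifferentiated replicate 2, which was level with the differentiating arrays. Its log2 fold change was 1.25 (95% interval -0.69 to 3.18, adjusted p = 0.571), and it was 0.28 without undifferentiated replicate 1 and 2.04 without undifferentiated replicate 2. The dimmer Hs6st2 probe sets gave 0.44, 0.017 and 0.057, with overlapping groups. Hs6st1 was 7.23, 7.82 and 7.94 in differentiating replicates 1 to 3 and 6.34, 7.68 and 7.70 in undifferentiated replicates 1 to 3. Undifferentiated replicate 1 was again the lowest array, and the log2 fold change of 0.42 became -0.030 without it. Hs6st3 had -0.12 (95% interval -0.44 to 0.20). Sulf1, which removes 6-O sulfates outside the cell, was 9.63, 9.80 and 9.93 in differentiating replicates 1 to 3 and 8.37, 9.61 and 9.25 in undifferentiated replicates 1 to 3. The groups were separated by a narrow gap, with undifferentiated replicate 1 lowest (log2 fold change 0.71, adjusted p = 0.375, and 0.35 without that array). At the other Sulf1 probe sets the groups overlapped, with 0.61 (limma adjusted p = 0.548) and -0.11 (adjusted p = 0.81). The second sulfatase, Sulf2, had -0.10 (95% interval -0.38 to 0.18) at a probe set whose probes may match other transcripts. Its other probe sets separated the groups downwards, with -0.77 (adjusted p = 0.19) and -0.32 (adjusted p = 0.382), and did not pass.

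**Figure D3:**
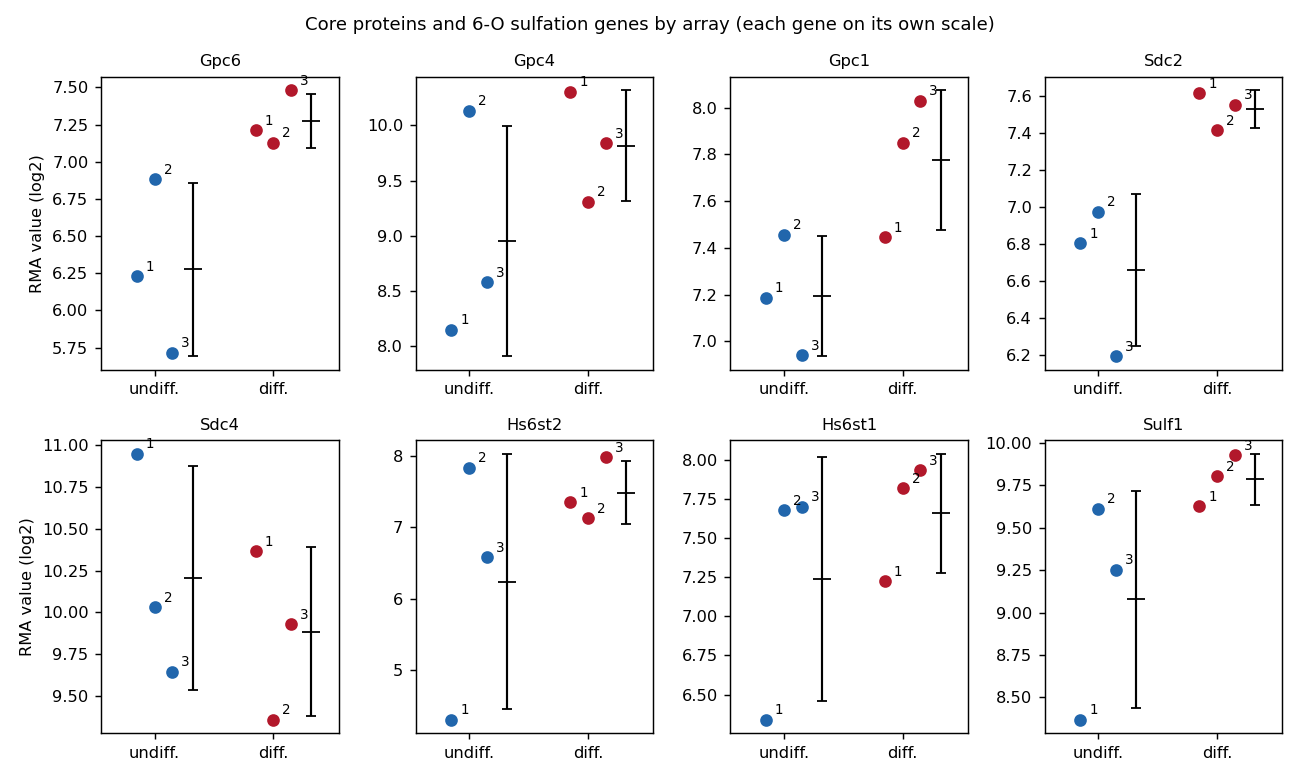
Points are the log2 RMA values (vertical axis, scaled gene by gene) of 4 glypican and syndecan genes in the upper row, and of Sdc4, Hs6st2, Hs6st1 and Sulf1 in the lower row, undifferentiated in blue and differentiating in red, numbered by replicate, with the mean and SD of 3 arrays in black; undifferentiated replicate 2 lies near the differentiating arrays for Gpc4 and Hs6st2, and undifferentiated replicate 1 is the lowest array for Hs6st2, Hs6st1 and Sulf1.

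The undifferentiated arrays differed more among themselves for these genes than the differentiating arrays did. The median range within a group was 0.42 in undifferentiated and 0.27 in differentiating cells, and 32 of the 50 genes (64%, beside 53.5% of all genes) had the wider range in undifferentiated cells, whereas the medians over all genes were 0.34 and 0.33. Of the 3 undifferentiated arrays, replicate 2 lay nearest to the differentiating mean for 28 of the 50 genes (56%, beside 42.6% of all genes). Replicate 1 lay farthest from it for 25 (50%, beside 45.7%). When undifferentiated replicate 2 was left out, 6 genes were higher, namely Gpc4 (1.45, limma adjusted p = 0.0976), Gpc6 (1.30, adjusted p = 0.0533), Sdc2 (1.03, adjusted p = 0.0877), Chst11 (0.90, adjusted p = 0.0536), Chst15 and Chst1. Over all genes, 430 were then higher and 421 lower, against 145 and 264 with all arrays. Without undifferentiated replicate 1, no gene of the 50 passed in limma, while 114 of all genes were higher and 262 lower. At an unadjusted limma p under 0.05 there were then 9 higher and 2 lower of the 50, against 8 and 2 with all arrays. The share of all genes at that cut was counted only with all arrays (17.2%).

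**Figure D4:**
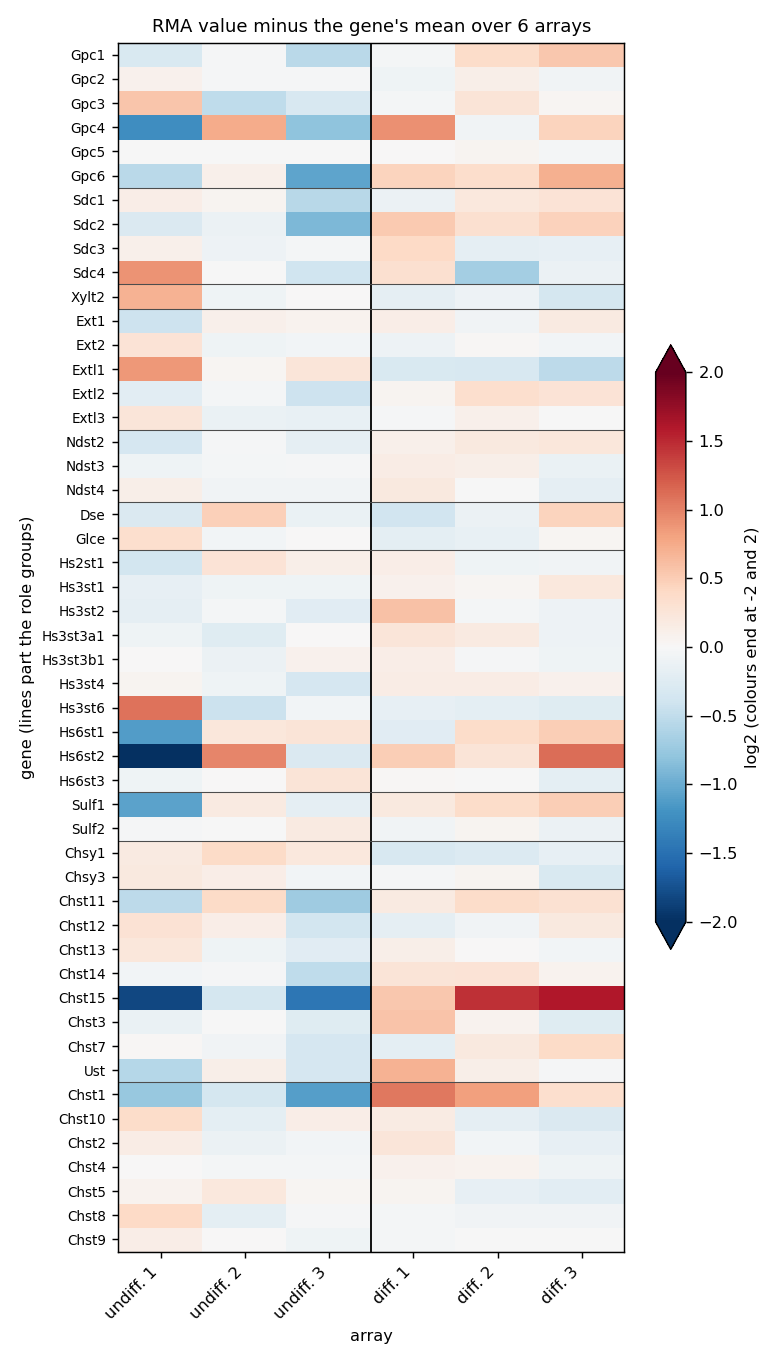
RMA value of each of the 50 genes on each array minus the gene's mean over 6 arrays (log2, colour scale from -2 in blue to 2 in red), with role groups parted by thin lines and the cell groups by a vertical line. Chst15 and Chst1 change colour between the groups, whereas Gpc4 and Hs6st2 differ most between undifferentiated replicates 1 and 2.

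Further genes of the same pathway, listed by function, were compared in the same way, and 51 of 53 were measured. None passed in limma in either direction (7 higher and 2 lower at an unadjusted p under 0.05, or 17.6% beside 17.2% of all genes), and their median log2 fold change was 0.13. The groups did not overlap for 7 genes that were higher and 4 that were lower (13.7% and 7.84%, beside 10.7% and 12.8% of all genes). Of the 11 genes that supply sulfate and sugar precursors, log2 fold changes ran from -0.42 for the nucleotide sugar transporter Slc35d2 (adjusted p = 0.331) to 0.41, and the linker gene with the largest change was B3galt6 (-0.25). Dsel, a relative of Dse, had 0.79 (adjusted p = 0.278), and 0.51 without undifferentiated replicate 1. All 4 other heparan sulfate core protein genes had positive values, from 0.11 (Col18a1) to 0.46 for Hspg2, the gene of perlecan (adjusted p = 0.384). Hspg2 had 0.28 without differentiating replicate 1 and 0.19 with array weights, and Agrn, the gene of agrin, had 0.43 (adjusted p = 0.335).

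Cd44, a surface receptor that can carry chondroitin sulfate, was 7.32, 6.47 and 7.08 in differentiating replicates 1 to 3 and 4.17, 7.57 and 4.92 in undifferentiated replicates 1 to 3. It followed the same order as Hs6st2 among the undifferentiated arrays, with replicate 2 high and replicate 1 low (log2 fold change 1.40, limma adjusted p = 0.52). Without undifferentiated replicate 2 its log2 fold change was 2.41, and it passed (limma adjusted p = 0.0374), whereas without undifferentiated replicate 1 it was 0.71. Of the 10 fibroblast markers, 4 had this order among the undifferentiated arrays, among them Col1a2 (5.55, 8.44 and 6.51 in undifferentiated replicates 1 to 3), and 3 were highest in undifferentiated replicate 1, among them Thy1 (7.24, 5.21 and 5.45). Their part in the Cd44 and Hs6st2 values was not tested. Notum was listed under glypican shedding, and a role of this enzyme in shedding was not tested. Notum was 5.88, 5.78 and 5.42 in differentiating replicates 1 to 3 and 6.28, 6.57 and 7.50 in undifferentiated replicates 1 to 3. Its groups did not overlap and undifferentiated replicate 3 was the highest (log2 fold change -1.09, adjusted p = 0.201, and -0.73 without that array). Among the turnover enzymes Naglu, which trims heparan sulfate in lysosomes, had 0.59 (adjusted p = 0.277), and the heparanase gene Hpse had -0.091 (0.11 without undifferentiated replicate 1).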

How the data were processed

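RNA of 6 samples had been hybridised to Affymetrix mouse expression arrays. Per the methods, the authors ran RMA from the affy library, which removes background, normalizes across arrays and gives 1 log2 value per probe set and array. Its version was not given in the sources used here. No value was transformed again. The table has 45101 probe sets, and without 64 array controls 45037 were tested, of which 34945 had 1 gene symbol in the platform annotation. A RefSeq table (GRCm38.p6) searched by gene ID changed 0 of these symbols. The precision is limited by 3 arrays per group, and no depth applies.

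The groups, taken from the sample titles, were compared with limma (version 3.58.1, run under R 4.3.3) by lmFit followed by eBayes, whose prior had 2.93 degrees of freedom, with Benjamini-Hochberg adjustment over all probe sets and a threshold of 0.1 as in the methods, and no replicate block, since the methods name none. The steps were tested on simulated data. Same-numbered arrays deviated together with correlations of 0.205, -0.11 and 0.115, and differently numbered arrays with -0.31 to 0.32. With 3 arrays per group these values can neither show nor exclude pairing, and the numbers were not taken to pair the samples. The genes, the lists and the motifs were chosen with earlier results of these data known. Named genes are those that passed at any probe set and otherwise, per role, the 2 of largest change (1 for further pathway genes), with the remaining genes in ranges or by name where they complete a role. Promoter windows came from RefSeq and matched 40 of the 50 genes. The alternatives were a replicate block, probe sets below the median signal left out, array weights, array controls kept, median centring, quantile normalization applied again, a trended and robust prior variance, omission of each array, a threshold of 0.05, a fold threshold of 1 on the log2 scale, the mean of a gene's probe sets, and any of its probe sets.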

Additional observations from a re-analysis of the deposited data

How the results depend on the processing

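Chst15 and Chst1 passed with array controls kept, with probe sets below the median signal left out, after median centring or a second quantile normalization, with a trended robust variance, with array weights, with the mean of a gene's probe sets and with a replicate block (limma adjusted p = 0.06 and 0.0627), which changed no call of the counts. At a threshold of 0.05 there were 0 genes higher. Leaving out 1 array gave 0 to 6 genes higher among the 50, and 0 to 2 among the further pathway genes. Array weights, which gave 0.298 to differentiating replicate 1, 0.346 to undifferentiated replicate 1 and 5.11 to differentiating replicate 2, raised the counts to 10 higher and 2 lower of the 50 and to 12 higher and 3 lower of the further pathway genes, and over all genes to 1826 higher and 1760 lower. The mean of a gene's probe sets gave 1 gene lower (Chsy1), and so did counting any probe set (Hs3st3b1). Of the named genes that did not pass, Sdc4 ran from -0.60 to 0.046 and Hs6st1 from -0.030 to 0.65 when 1 array was left out, and both changed sign without undifferentiated replicate 1. Dse ran from -0.27 to 0.19, with a changed sign without either of differentiating replicates 1 and 2 or without undifferentiated replicate 2, and was 0.021 after a second quantile normalization. The cause was not tested. The absence of detection calls limits what can be said of the 17 genes whose mean lies below the median of all probe sets.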
